A study of Mus musculus with 8 samples.

Results

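The hair shaft keratins described here are *Krt31*, *Krt32*, *Krt33a*, *Krt33b*, *Krt34* and *Krt35* of type I and *Krt81*, *Krt84*, *Krt85* and *Krt86* of type II. They were chosen by name, as the rows of the deposited RPKM table that carry these symbols, and made up 10 of its 23358 rows. RPKM is the number of reads per kilobase of gene, scaled to the reads of the library. The study deleted *Med1*, a subunit of the Mediator complex, and asked how gene expression changes along the cervical loop, the growing end of the mouse incisor. RNA was sequenced on an Illumina instrument from a head region (CLH), which holds the stem cells, and a tail region (CLT), which holds their progeny, both dissected from mandibles of C57BL/6 mice at 4 weeks of age. In the cKO groups, Cre recombinase under the *Krt14* promoter removed floxed exons 8 to 10 of *Med1*, so that the deletion was aimed at epithelial cells and not at the mesenchyme of the same tissue. The Ctrl groups were littermates without Cre. The 4 groups, named Ctrl CLH, cKO CLH, Ctrl CLT and cKO CLT, held 2 libraries each. By the study's text, the replicates are biological ones from separate litters with pooled cervical loop tissue, so the p-values measure the spread between pools and not between single animals. Which library came from which litter is not given in the sources used here.

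Hair keratins are the intermediate filament proteins of hair and nail. A type I chain pairs with a type II chain to form a filament, and in the hard shaft the filaments are cross-linked with cysteine-rich keratin-associated proteins. The genes are switched on in sequence as cells leave the hair matrix and form the cuticle and cortex of the shaft, and the enamel-forming epithelium of the incisor is not a usual site of their expression.

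The values were whole multiples of the amount that 1 read adds, within 0.05 reads, for 100% of the low values checked. These steps gave totals from about 26590000 reads for the library labelled Ctrl CLT 2 to about 34420000 for that labelled Ctrl CLH 1, and the reads behind each value below. At these depths 3 reads on a gene of 1 kilobase make an RPKM of about 0.0872 to 0.113. Intervals and floors given below cover counting error only.

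*Med1* (chr11:98152155-98193293) served to check the labels. In CLH its RPKM was 7.71 and 9.12 under the Ctrl label and 7.10 and 7.04 under the cKO label. In CLT it was 4.83 in Ctrl CLT 1, 8.71 in Ctrl CLT 2, and 9.15 and 8.96 under the cKO label. Both values under the cKO label were therefore below both Ctrl values in CLH, and above them in CLT. Neither difference passed the test (limma, log2 fold change -0.22, SE 0.11 and adjusted p = 0.708 in CLH, and 0.42, SE 0.30 and adjusted p = 0.357 in CLT). The deposited value covers the whole gene, exons 8 to 10 cannot be read apart in it, and Cre was not aimed at all cells of the tissue, so *Med1* does not check the genotype and cKO and Ctrl are used below as labels.

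The 2 libraries labelled Ctrl CLT stood apart from each other. The median size of the log2 difference between replicates over the 14148 genes tested was 0.404 in Ctrl CLT, where the cKO CLT pair gave 0.105, the Ctrl CLH pair 0.092 and the cKO CLH pair 0.113. A difference of more than 1 on this scale was found for 14.5% of the genes in Ctrl CLT and for 0.22% in cKO CLT. Every hair keratin was high in Ctrl CLT 1 and near 0 in Ctrl CLT 2, so each Ctrl CLT library is given apart and each test with and without it.

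The labels name the cell type as dental epithelial cells. Against that label, the ameloblast list (*Amelx*, *Ambn*, *Enam*, *Amtn*, *Odam*, *Klk4* and *Mmp20*, genes of enamel matrix and its processing) summed to an RPKM of 84584 in Ctrl CLT 1 and 37392 in Ctrl CLT 2, and to 19.7 and 15.8 in the libraries labelled cKO CLT. In the 4 CLH libraries the sum was 13477, 12503, 13658 and 14318. The sum, carried by *Amelx* and *Ambn*, was thus high in both Ctrl CLT libraries and in all CLH libraries, and low in both libraries labelled cKO CLT. Not every gene of the list was high in CLH, where *Amtn* ran from 5.48 to 19.3 (6.88 and 8.72 in cKO CLT), *Odam* from 4.21 to 5.91 and *Klk4* from 0.886 to 1.65. The list of basal and dental epithelium, led by *Krt5*, was present throughout, with sums of 3006 and 3431 in cKO CLT, 1937 in Ctrl CLT 1 and 961.2 in Ctrl CLT 2.

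*Krt33a* encodes a type I chain of the cortex, the main body of the shaft, and was the most abundant hair keratin. An RPKM of 763 and 804 was measured in cKO CLT, 262 in Ctrl CLT 1 and 0.112 in Ctrl CLT 2. The CLH values were 0.0519 and 0.111 under the Ctrl label and 0.0353 and 0.0403 under the cKO label. High values were thus found in 3 libraries, both of cKO CLT and 1 of Ctrl CLT, and the other 5 libraries held a few reads each. Over both cKO CLT libraries 72752 reads were counted, against 4 in the pooled cKO CLH libraries, a ratio of RPKM of 20818 (95% counting interval 8131 to 76409). Ctrl CLT 1 held 12846 reads and Ctrl CLT 2 held 5, a ratio of 2335 (1000 to 7193).

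*Krt31* and *Krt34* encode further type I chains of the cortex. *Krt31* had an RPKM of 321.5 and 355.6 in cKO CLT, 114 in Ctrl CLT 1 and 0.143 in Ctrl CLT 2, and in CLH 0.0368 and 0.0235 under the Ctrl label and 0.0750 and 0.0428 under the cKO label. *Krt34* had an RPKM of 332 and 369.9 in cKO CLT, 131 in Ctrl CLT 1 and 0.141 in Ctrl CLT 2, and in CLH 0.0724 and 0 under the Ctrl label and 0.0369 and 0 under the cKO label. The same 3 libraries were high for both genes. Each gene had 6 reads in Ctrl CLT 2, which put Ctrl CLT 1 above it by 801 times for *Krt31* (368 to 2185) and 932 times for *Krt34* (428 to 2542). *Krt33b*, the near neighbour of *Krt33a*, had an RPKM of 217 and 239.9 in cKO CLT, 84.1 in Ctrl CLT 1 and 0.0714 in Ctrl CLT 2, and in CLH 0 and 0.0235 under the Ctrl label and 0.0187 and 0.107 under the cKO label. With 3 reads in Ctrl CLT 2, its ratio between the Ctrl CLT libraries was 1179 (403 to 5717).

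*Krt32* encodes a type I chain of the shaft cuticle, the overlapping outer cells of the hair. Its RPKM was 146.7 and 160.2 in cKO CLT, 54.3 in Ctrl CLT 1 and 0.0225 in Ctrl CLT 2, and it was 0.0174 and 0 in Ctrl CLH. Both cKO CLH libraries held 0 reads, so the level in cKO CLT was at least 5416-fold higher, with the floor of 3 reads taken over the pooled CLH pair. *Krt35*, a type I chain made early in the matrix and in the cuticle, had an RPKM of 419 and 477 in cKO CLT, 144.5 in Ctrl CLT 1 and 0.175 in Ctrl CLT 2. In CLH it was 0.0506 and 0.0432 under the Ctrl label and 0.103 and 0 under the cKO label. *Krt85* encodes a type II chain of the same early cells. Its RPKM was 314 and 309 in cKO CLT, 111 in Ctrl CLT 1, 0.0742 in Ctrl CLT 2, and 0.0430 and 0.0918 in Ctrl CLH. With 0 reads in both cKO CLH libraries, its level in cKO CLT was at least 13324-fold higher. The early and the cuticle genes were therefore high in the same 3 libraries as the cortex genes.

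*Krt81* and *Krt86* encode type II chains of the cortex. The RPKM of *Krt81* was 231.5 and 267 in cKO CLT, 89.1 in Ctrl CLT 1 and 0.101 in Ctrl CLT 2, and in CLH 0.0313 and 0.0801 under the Ctrl label and 0.0160 and 0.0364 under the cKO label. The RPKM of *Krt86* was 156.5 and 168 in cKO CLT, 56.3 in Ctrl CLT 1 and 0.0384 in Ctrl CLT 2, and in CLH 0 and 0 under the Ctrl label and 0.0302 and 0.0173 under the cKO label. Because Ctrl CLH held 0 reads of *Krt86*, Ctrl CLT 1 was at least 2255-fold higher than the pooled Ctrl CLH libraries, while the 2 reads of Ctrl CLT 2 were under the floor and give no fold. *Krt84*, known from the filiform papillae of the tongue rather than from the hair shaft, was the least abundant in cKO CLT. Its RPKM was 27.8 and 31.2 in cKO CLT, 9.15 in Ctrl CLT 1 and 0.132 in Ctrl CLT 2, and in CLH 0.102 and 0.145 under the Ctrl label and 0.0692 and 0.237 under the cKO label. *Krt84* also had the smallest ratios, 200 (134 to 312) between cKO CLT and the pooled cKO CLH libraries and 69.5 (36.4 to 153) between Ctrl CLT 1 and Ctrl CLT 2. Its reads outside the 3 high libraries, 24 in cKO CLH, were more numerous than those of any other of these keratins.

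**Figure D1:**
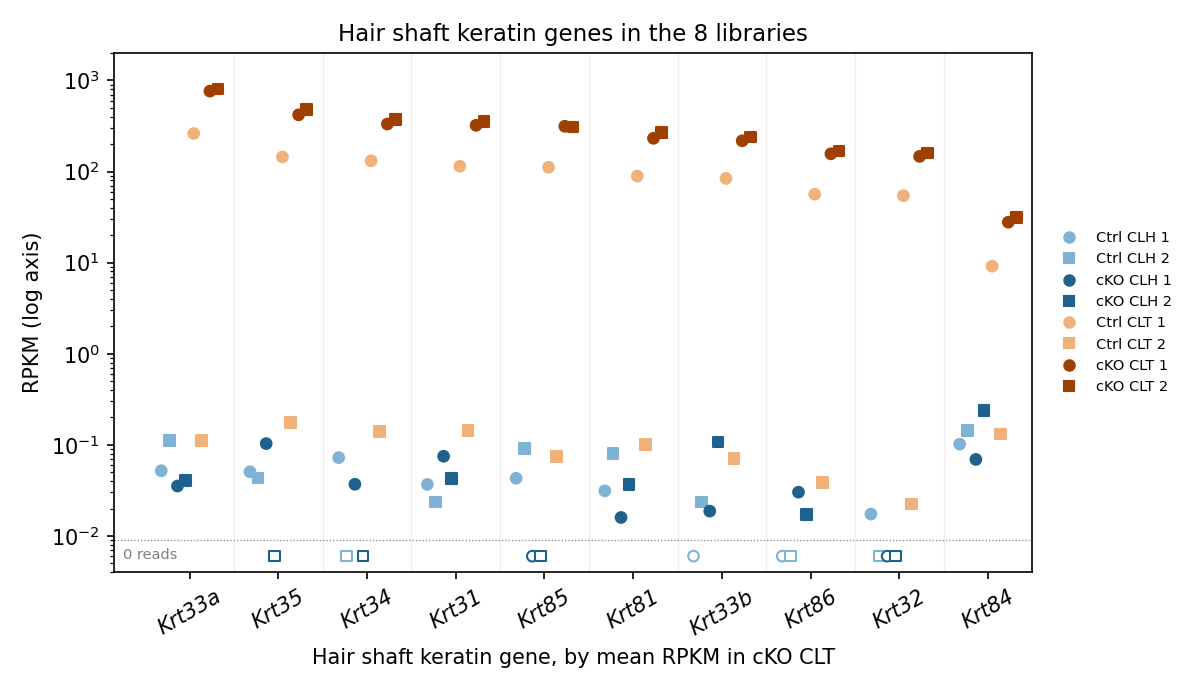
RPKM (log axis) of each of the 10 hair keratins in each of the 8 libraries, with genes ordered by their mean in cKO CLT, 1 symbol per library and open symbols at the bottom for 0 reads. For all 10 genes the cKO CLT libraries are the highest and Ctrl CLT 1 lies next, while Ctrl CLT 2 lies with the CLH libraries, for *Krt33a* at 0.112 against 262 in Ctrl CLT 1.

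Ordered by mean RPKM in cKO CLT, *Krt33a* (783.7 ± 29.1, SD, n = 2) stood above *Krt35* (448 ± 41.2), and *Krt35* above *Krt34* (351 ± 26.6). *Krt34* and *Krt31* (338.5 ± 24.1) overlapped between their libraries and could not be ordered. *Krt85* (311 ± 3.39) came next, followed by *Krt81* (249 ± 25.1) and *Krt33b* (229 ± 15.9), which overlapped with each other. *Krt86* (162 ± 7.98) and *Krt32* (153.5 ± 9.52) overlapped as well, and *Krt84* (29.5 ± 2.43) was lowest. RPKM is scaled by gene length, so these levels can be compared between genes, within the limit that some of the genes share sequence.

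The 10 genes summed to an RPKM of 2930 and 3182 in cKO CLT, 1056 in Ctrl CLT 1 and 1.009 in Ctrl CLT 2. In CLH the sum was 0.405 and 0.518 under the Ctrl label and 0.385 and 0.481 under the cKO label. In reads, Ctrl CLT 1 held 53486 and Ctrl CLT 2 held 49, and 24 to 30 were counted in each CLH library. Without *Krt33a*, the sum was 2167 and 2378 in cKO CLT, 794 in Ctrl CLT 1 and 0.897 in Ctrl CLT 2, so the gap did not rest on the most abundant gene. The 49 reads of Ctrl CLT 2 against 55 in the pooled Ctrl CLH libraries gave a ratio of reads, corrected for depth, of 2.05 (1.37 to 3.07). This interval holds no spread between samples. The test of Ctrl CLT 2 against Ctrl CLH given below cannot settle the ratio. It uses log2(RPKM + 1), and adding 1 holds differences at such levels near 0 whatever the fold.

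Of the RPKM of all 51 rows named as keratins, the 10 hair keratins made up 17.3% and 17.2% in cKO CLT, 15.9% in Ctrl CLT 1 and 0.114% in Ctrl CLT 2. In CLH they made up 0.0545% and 0.0763% under the Ctrl label and 0.0477% and 0.0547% under the cKO label. The mixture of hair keratins was close in the 3 libraries where they were high. Of their sum *Krt33a* took 26% and 25.3% in cKO CLT and 24.8% in Ctrl CLT 1, and *Krt84* took 0.948% and 0.981% in cKO CLT and 0.867% in Ctrl CLT 1. The 6 type I genes summed to 2.97 times the 4 type II genes in Ctrl CLT 1 and to 3.02 and 3.11 times in cKO CLT.

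Between the 3 libraries, Ctrl CLT 1 held each gene at about the same share of its cKO CLT level. Given as a percent of the pooled cKO CLT libraries, from reads and with 95% counting intervals, the share was highest for *Krt34* at 37.4% (36.4 to 38.4). It was 36.8% for *Krt33b*, 35.8% for *Krt81*, 35.8% for *Krt85*, 35.4% for *Krt32*, 34.7% for *Krt86*, 33.8% for *Krt31* and 33.4% for *Krt33a*. The lowest shares were those of *Krt35* at 32.3% (31.5 to 33.1) and *Krt84* at 31.0% (28.6 to 33.6). The intervals of *Krt34* and *Krt35* did not overlap, so the shares differed by more than counting error, but with a lone library their spread between replicates is unknown. The median over the 10 genes was 35.1%, against 90.2% over the 12763 tested genes with a mean RPKM of at least 1 in cKO CLT. A share of this size was not particular to the hair keratins. The 921 tested genes with a cKO CLT mean at least 10 times that of Ctrl CLT 2, described below, had a median of 32.8%.

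**Figure D2:**
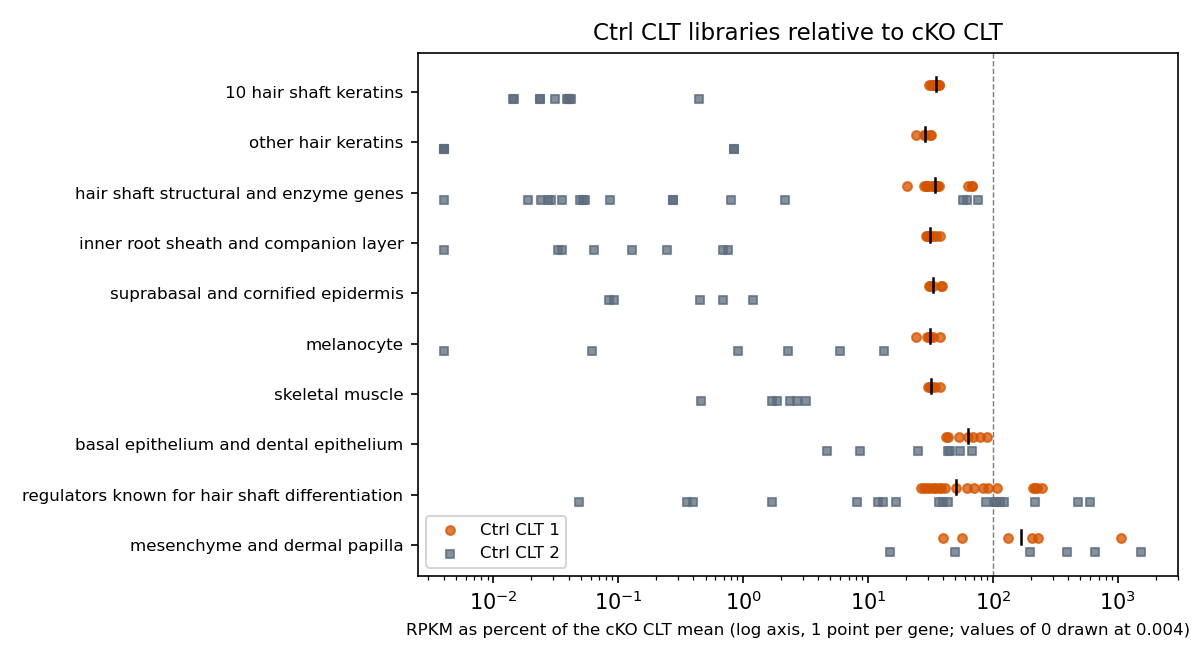
RPKM in Ctrl CLT 1 (circles) and Ctrl CLT 2 (squares) as a percent of the cKO CLT mean (log axis), 1 symbol per gene with a cKO CLT mean of at least 1, for the hair keratins and 9 further gene lists; the black tick marks the median of Ctrl CLT 1, the dashed line 100%, and zeros are drawn at 0.004. The hair keratins lie between 31.0% and 37.3% in Ctrl CLT 1 and at or below 0.446% in Ctrl CLT 2.

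The first comparison asked how the hair keratins differed between the labelled genotypes in CLT. For all 10, both libraries labelled cKO lay above both Ctrl libraries, a pattern found for 37.2% of all genes tested, with the reverse for 35.1%. On the log2(RPKM + 1) scale, which understates the change of low genes, the differences ran from 3.17 (*Krt84*, SE 1.12) to 5.52 (*Krt33a*, SE 2.77), with a median of 4.74 against -0.01 over all genes. The median SE was 2.29, against 0.22 over all genes. With limma, 0 of the 10 passed at an adjusted p of 0.05, where 0.0777% of all genes passed as higher and 1.68% as lower. At an unadjusted p under 0.05 the count was 1 (*Krt84*), beside 5116 of all 14148 genes, a share that the counts for the gene lists in CLT below are to be read against, and voom, a limma fit of the reads, called 0. The adjusted p of *Krt84* was 0.134 and that of the most abundant gene, *Krt33a*, was 0.225. The call changed with the replicate number as a block, which may or may not stand for the litter: limma then called 1 of 10 (*Krt84*, adjusted p from 0.0413 to 0.0686 over the 10), and over all genes 888 as higher and 856 as lower, against 11 and 237. A crossed block, which joins number 1 of each genotype to number 2 of the other and was chosen after seeing the data, called 0 of 10, and 0 as higher and 9 as lower over all genes. In the tests below, too, each gene passed the filter on low values through the 3 high CLT libraries, so counts over the genes are descriptions. With 2 libraries on each side, the smallest p of an exact permutation test is 0.333. In bulk tissue, fewer cells of a type and less RNA per cell cannot be told apart.

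Leaving out either Ctrl CLT library changed the call and the size of the difference. Without Ctrl CLT 1, limma called 10 of 10 as higher in cKO CLT, beside 31.4% of all genes called as higher and 38.1% as lower, with differences from 4.75 (*Krt84*) to 9.46 (*Krt33a*) and adjusted p from 1.49e-06 to 8.36e-06. Without Ctrl CLT 2, it also called 10 of 10, beside 29.1% of all genes called as higher and 23.0% as lower, with differences from 1.41 (*Krt34*) to 1.62 (*Krt35*) and adjusted p from 4.23e-04 to 6.99e-04. The direction was thus the same against each Ctrl CLT library, and the size of the difference depended on which of them was used. Such a fit leaves 1 residual degree of freedom and assumes that the lone Ctrl library varies as the cKO pair does. Counts for the gene lists below without a Ctrl CLT library are to be read against the shares of all genes given here. Without either cKO CLT library, 0 of 10 passed, with adjusted p from 0.441 to 0.535.

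In CLH, every hair keratin was low under both genotype labels. *Krt31* and *Krt86* were higher in both libraries labelled cKO and *Krt33a* and *Krt85* lower, that is 2 of 10 in each direction, where 19.9% and 18.8% of all genes did so. On the log2(RPKM + 1) scale the differences lay between -0.09 (*Krt85*) and 0.07 (*Krt33b*), with a median of 0.00 against -0.01 over all genes. With limma, 0 of 10 passed (adjusted p from 0.691 to 0.989), 0% of all genes passed in either direction, and for the hair keratins the count at an unadjusted p under 0.05 (1027 over all genes) and the count by voom were both 0. Each value in CLH rests on 0 to 18 reads, and at such levels the pseudocount of 1 holds the differences near 0 whatever the fold. They ran from -0.73 to 0.50 with a pseudocount of 0.1 and from -3.17 to 1.89 by voom, with 0 of 10 called in either.

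An interaction term in a fit of all 8 libraries tested whether the difference between labelled genotypes was itself larger in CLT than in CLH. It lay between 3.13 (*Krt84*) and 5.58 (*Krt33a*), with a median of 4.77. With limma, 0 of 10 passed, where 8.05% of all genes passed as higher and 9.58% as lower, and adjusted p ran from 0.130 to 0.240. At an unadjusted p under 0.05 the count was 1 (*Krt84*), beside 5375 of all 14148 genes, and by voom it was 0. Without Ctrl CLT 1, 10 of 10 passed as higher, beside 28.5% of all genes and 34.7% as lower (4.72 to 9.52, limma adjusted p from 2.75e-09 to 1.89e-07). Without Ctrl CLT 2, 10 of 10 passed as well, beside 26.6% of all genes and 20.1% as lower (1.36 to 1.64, limma adjusted p from 3.90e-05 to 2.60e-04).

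Along the tissue labelled cKO, all 10 hair keratins were higher in CLT than in CLH. Both CLT libraries lay above both CLH libraries for 10 of 10, as they did for 34.5% of all genes, with the reverse for 52.3%. The differences on the log2(RPKM + 1) scale ran from 4.73 (*Krt84*, SE 0.12, limma adjusted p = 6.35e-09) to 9.56 (*Krt33a*, SE 0.08, limma adjusted p = 5.07e-11). With limma, 10 of 10 were called as higher, where 28.9% of all genes were called as higher and 45.1% as lower. The median was 8.11 against -0.18 over all genes. Median-of-ratios scaling moved the median of all genes by 0.20, and that of the hair keratins became 8.22. It also turned the balance over all genes, from 4084 called as higher and 6384 as lower to 5316 and 4850, so that balance depends on the scaling, while 10 of 10 hair keratins were called as higher with either.

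Along the tissue labelled Ctrl, the answer turned on the CLT library used. Both CLT libraries lay above both CLH libraries for 8 of 10 genes, as they did for 15.2% of all genes, with the reverse for 36.8%. The differences ran from 1.59 (*Krt84*) to 3.98 (*Krt33a*), with a median of 3.30 against -0.13 over all genes, a median that median-of-ratios scaling moved by 0.15. With limma, 0 of 10 passed (adjusted p from 0.536 to 0.548), where 0.00707% of all genes were called as higher and 0% as lower, and the counts at an unadjusted p under 0.05 (1860 over all genes) and by voom were both 0. Without Ctrl CLT 2, 10 of 10 were called as higher, beside 18.4% of all genes and 34.9% as lower (3.18 to 7.92, limma adjusted p from 0.00291 to 0.00334). Without Ctrl CLT 1, 0 of 10 were called, beside 1.91% of all genes as higher and 1.40% as lower (0.01 to 0.17, limma adjusted p from 0.0915 to 0.910). The fit without Ctrl CLT 1 compares values so low that the pseudocount of 1 holds the differences near 0 whatever the fold. It therefore cannot decide whether Ctrl CLT 2 differs from Ctrl CLH. The 2 comparisons along the tissue and the 2 between labelled genotypes share libraries.

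The gap between the Ctrl CLT libraries was among the largest in the table. Ranked by the log2(RPKM + 1) of Ctrl CLT 1 minus that of Ctrl CLT 2 over 14148 genes, *Krt33a* was at rank 15 with 7.88 and *Krt84* at rank 211 with 3.16, and the other 8 hair keratins lay between them.

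Of the other hair keratins, *Krt36*, *Krt39*, *Krt40*, *Krt82* and the row named *Krt83* were in the table. *Krt39*, a late cuticle keratin, had an RPKM of 51.2 and 53.1 in cKO CLT, 12.6 in Ctrl CLT 1 and 0 in Ctrl CLT 2 and all CLH libraries. *Krt82*, a type II cuticle keratin, had an RPKM of 57.9 and 65.7 in cKO CLT, 17.2 in Ctrl CLT 1, 0.521 in Ctrl CLT 2, and 0.746 to 1.12 in CLH. The 5 summed to 324 and 365 in cKO CLT, 101.5 in Ctrl CLT 1 and 0.950 in Ctrl CLT 2, with a median share in Ctrl CLT 1 of 28.7% of the cKO CLT mean. Between labelled genotypes in CLT limma called 0 of 5 (log2 differences 3.39 to 4.35, 2 at an unadjusted p under 0.05 beside 5116 of all 14148 genes, voom 0). Without Ctrl CLT 1 it called 5 of 5 as higher, and so it did without Ctrl CLT 2, with a median of 5.56 in the former case and 1.72 in the latter. Along the tissue labelled cKO, 5 of 5 were higher in CLT than in CLH.

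The list of 17 further genes of the hair shaft holds keratin-associated proteins, cross-linking enzymes and desmosomal cadherins. It summed to an RPKM of 10335 and 10640 in cKO CLT, 3597 in Ctrl CLT 1, 36.8 in Ctrl CLT 2 and 21.8 to 25.5 in CLH. *Krtap8-1*, a keratin-associated protein rich in glycine and tyrosine, was the most abundant, with an RPKM of 3632 and 3480 in cKO CLT, 1254 in Ctrl CLT 1 and 0.974 in Ctrl CLT 2. *S100a3*, a calcium-binding protein of the cuticle, had an RPKM of 1954 and 2102 in cKO CLT, 747 in Ctrl CLT 1 and 1.11 in Ctrl CLT 2. *Dsg4*, a desmosomal cadherin needed for an intact shaft, had an RPKM of 56.3 and 57.0 in cKO CLT, 11.7 in Ctrl CLT 1 and 0.0108 in Ctrl CLT 2. The shaft genes thus followed the keratins over the libraries, apart from *Selenbp1* (2.71 and 3.18 in cKO CLT, 2.01 and 1.83 in Ctrl CLT), *Dsc2* and *Lpar6*, whose Ctrl CLT libraries were near each other. In CLT limma called 0 of 17 (median log2 difference 4.47, 5 at an unadjusted p under 0.05, voom 0). It called 17 of 17 as higher without Ctrl CLT 1 and 16 of 17, all but *Selenbp1*, without Ctrl CLT 2. In the tissue labelled cKO, 17 of 17 were higher in CLT than in CLH. The call of *Selenbp1* (log2 difference 0.40, SE 0.12) was lost without cKO CLH 1 and without cKO CLT 2. *Dsc2* was the 1 gene of the list to pass the interaction test, as higher, beside 8.05% of all genes. It did not pass without any 1 of the CLH or cKO CLT libraries.

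Among 19 regulators known for hair shaft differentiation, the libraries split them into groups. *Hoxc13*, a homeobox factor that switches on hair keratin genes, had an RPKM of 65.4 and 61.8 in cKO CLT, 21.4 in Ctrl CLT 1, 0.0309 in Ctrl CLT 2 and 0 to 0.0695 in CLH. *Foxn1*, the forkhead factor lost in nude mice, had an RPKM of 40.6 and 42.6 in cKO CLT, 11.01 in Ctrl CLT 1 and 0.165 in Ctrl CLT 2. *Gata3*, a factor of the inner root sheath, had an RPKM of 39.7 and 38.9 in cKO CLT, 12.2 in Ctrl CLT 1 and 0.140 in Ctrl CLT 2. These 3 regulators followed the keratins over the libraries. *Lef1*, which acts with Wnt signals in the precortex, had an RPKM of 21.8 and 20.9 in cKO CLT, 7.85 in Ctrl CLT 1, 2.80 in Ctrl CLT 2 and 4.66 to 4.76 in CLH. *Dlx3*, the most abundant of the list and a factor of teeth and hair alike, differed little, with an RPKM of 134 and 140.3 in cKO CLT against 124.8 in Ctrl CLT 1 and 120.5 in Ctrl CLT 2. Others went the opposite way, such as *Dlx4* (7.55 and 8.501 in cKO CLT, 19.8 in Ctrl CLT 1 and 48.2 in Ctrl CLT 2) and *Bmp4* (20.9 and 22.3 in cKO CLT, 45.3 in Ctrl CLT 1 and 46.9 in Ctrl CLT 2). In CLT limma called 0 of 19 (12 at an unadjusted p under 0.05, voom 0), where the median log2 difference was 1.07 and single values ran from -1.83 (*Dlx4*) to 3.75 (*Hoxc13*). The interaction was called for *Lef1*, *Foxq1* and *Prdm1* as higher and for *Msx1*, *Bmp4* and *Dlx4* as lower. That is 3 of 19 in each direction, beside 8.05% of all genes called as higher and 9.58% as lower. Without Ctrl CLT 1 limma called 11 of 19 as higher and 3 as lower in CLT, *Hoxc13*, *Foxn1* and *Gata3* among the former. Without Ctrl CLT 2 it called 12 as higher and 4 as lower, again with these 3 among the former. Without either cKO CLT library it called 0 in CLT and 0 in the interaction. Leaving out 1 CLH library gave 0 interaction calls, or 1 (*Bmp4*) without cKO CLH 1.

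Genes of other cell layers were high in the same libraries as the hair keratins. The inner root sheath and companion layer, epithelia that surround the shaft, were represented by 8 keratins led by *Krt71*, which summed to 9391 and 10214 in cKO CLT, 3197 in Ctrl CLT 1, 15.9 in Ctrl CLT 2 and 11.9 to 15.4 in CLH. Suprabasal and cornified epidermis, 6 genes led by *Krt10*, summed to 1059 and 1058 in cKO CLT, 369 in Ctrl CLT 1, 4.02 in Ctrl CLT 2 and 5.61 to 19.9 in CLH. All 8 sheath keratins and 5 of the 6 epidermal genes were above an RPKM of 1 in cKO CLT, *Krt2* being the exception at 0.273 and 0.295. The median share in Ctrl CLT 1 was 31.1% of cKO CLT for the sheath and 33.4% for the epidermis. In CLT, limma called 0 of 8 sheath keratins (log2 differences 3.24 to 6.22) and 0 of 5 epidermal genes tested (2.99 to 4.80), with 1 and 0 at an unadjusted p under 0.05 and 0 by voom. It called all 8 and all 5 as higher without Ctrl CLT 1, and likewise without Ctrl CLT 2.

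So were 2 lists from outside the epithelium. All 6 melanocyte genes, led by *Dct*, summed to an RPKM of 414.4 and 414.5 in cKO CLT, 134 in Ctrl CLT 1, 10.3 in Ctrl CLT 2 and 4.27 to 4.58 in CLH. All 6 skeletal muscle genes, led by *Acta1*, summed to 1268 and 1463 in cKO CLT, 458 in Ctrl CLT 1, 29.6 in Ctrl CLT 2 and 17.5 to 22.2 in CLH. In Ctrl CLT 1 the median share of the cKO CLT mean was 31.2% for melanocyte and 31.9% for muscle genes, beside 35.1% for the hair keratins. Of the defining markers, *Mlana* was at 0 in Ctrl CLT 2, and none of either list was at 0 in cKO CLT or Ctrl CLT 1. In CLT, limma called 0 of 6 in each list, with median log2 differences of 3.15 and 3.23, with 4 and 2 at an unadjusted p under 0.05 and 0 by voom. It called 6 of 6 in each list as higher without Ctrl CLT 1, and likewise without Ctrl CLT 2. In the tissue labelled cKO 6 of 6 in each list were higher in CLT than in CLH. The 921 tested genes with a cKO CLT mean at least 10 times that of Ctrl CLT 2, with values of Ctrl CLT 2 under 0.1 set to 0.1, had a median share in Ctrl CLT 1 of 32.8% (5th to 95th percentile 21.6% to 51.7%). The part of these other tissues in the hair keratin result was not tested.

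Enamel genes were low in cKO CLT. All 7 ameloblast genes fell in CLT of the libraries labelled cKO (limma, log2 differences from -12.31 for *Amelx* to -6.54 for *Mmp20*). The 7 were called without either Ctrl CLT library, 6 of them without either cKO CLT library, *Odam* being lost, and 0 by voom. *Amelx*, the main enamel matrix gene, had an RPKM of 6.57 and 3.68 in cKO CLT, 48799 in Ctrl CLT 1 and 18601 in Ctrl CLT 2. *Ambn*, *Enam*, *Amtn* and *Mmp20* were also higher in Ctrl CLT 1 than in Ctrl CLT 2, while *Odam* (870.9 and 3671) and *Klk4* (186.6 and 205.8) were lower. Of 6 odontoblast and bone genes, *Dspp*, *Dmp1*, *Bglap* and *Sp7* fell, of which *Dspp* and *Bglap* were called without either cKO CLT library and none by voom, and the list, led by *Col1a1*, summed to 377.5 and 472 in cKO CLT, 2167 in Ctrl CLT 1, 2533 in Ctrl CLT 2 and 2136 to 3109 in CLH. *Dspp*, the defining dentin gene, had an RPKM of 0.145 and 0.174 in cKO CLT, and *Ibsp* was at 0 in both cKO CLT libraries. Of the basal and dental epithelium genes reported here, 0 of 7 were called.

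Of 8 oral and tongue genes, the site that *Krt84* is known from, 0 passed in CLT (limma, median log2 difference -0.08, 2 at an unadjusted p under 0.05, voom 0). Without Ctrl CLT 1 limma called 4 as higher and 1 as lower, and without Ctrl CLT 2 it called 3 and 5. The list, led by *Krt6a*, summed to 179.5 and 187 in cKO CLT, 74.8 in Ctrl CLT 1, 10.3 in Ctrl CLT 2 and 1.99 to 77.9 in CLH. *Krt36*, which is also a hair keratin of the list above, had an RPKM of 49.4 and 51.7 in cKO CLT and 15.8 in Ctrl CLT 1. The mucosal keratin *Krt13* was at 0.407 and 0.251 in cKO CLT, 4.45 in Ctrl CLT 1, 0.115 in Ctrl CLT 2, and in CLH 21.8 and 0.0566 under the Ctrl label and 42.5 and 24.4 under the cKO label. The erythroid genes *Alas2* and *Hba-a1* summed to 4.10 and 5.12 in cKO CLT and 6.23 and 5.90 in Ctrl CLT, with *Alas2* the more abundant, and *Alas2*, the 1 gene tested, did not pass. Mesenchyme and dermal papilla, 6 genes led by *Col3a1*, summed to 1030 and 1139 in cKO CLT, 964 in Ctrl CLT 1 and 1229 in Ctrl CLT 2. In that list *Wif1* fell in CLT (limma, log2 difference -3.58, lost without either cKO CLT library and by voom) and 5 of 6 did not pass, among them *Corin*, a gene of the dermal papilla, at 5.40 and 5.40 in cKO CLT, 2.17 in Ctrl CLT 1 and 0.807 in Ctrl CLT 2. The part of these lists, too, was not tested.

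The genes nearest to the hair keratins in pattern were found by the root mean square difference, over the 8 libraries, between a gene's centred log2(RPKM + 1) and the mean centred profile of the 10. That profile was -2.77 to -2.75 in CLH, 5.01 and 5.14 in cKO CLT, 3.56 in Ctrl CLT 1 and -2.68 in Ctrl CLT 2. The 10 nearest of 14138 genes were *Krtap16-8* (0.030), *Krtap16-1* (0.085), *Krtap3-3* (0.087), *Gjb2* (0.147), *Krtap26-1* (0.161), *Tchhl1* (0.176), *Crym* (0.189), *Cst6* (0.206), *Krtap6-1* (0.214) and *Krt77* (0.229). *Krtap16-8* had an RPKM of 222 and 235 in cKO CLT, 79.7 in Ctrl CLT 1 and 0 in the other 5 libraries. Of the nearest 50 genes, 8 were keratins, of 38 tested outside the 10, and 16 were keratin-associated proteins, of 49 tested. The other 26 held genes of several lists above, such as *Gprc5d* of the shaft, *Ivl* of the epidermis and *Mlana* of melanocytes. Among the 10 themselves, *Krt33b* (0.046) and *Krt81* (0.052) lay closest to the mean profile, and *Krt33a* (0.814) and *Krt84* (1.5), the highest and the lowest in level, lay farthest. The measure depends on level as well as on shape, because the pseudocount of 1 compresses low genes.

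The 6 type I genes lie side by side on chromosome 11 (chr11:100011199-100096224, 85 kb), in the order *Krt33a*, *Krt33b*, *Krt34*, *Krt31*, *Krt32* and *Krt35*, with no other row of the table between them. The 4 type II genes lie in 101.8 kb of chromosome 15 (chr15:101431014-101532820) with 4 other rows. Neighbours in the type I row were not always neighbours in level. *Krt33a* had a mean RPKM of 783.7 in cKO CLT and *Krt33b*, beside it, 229. *Krt34* and *Krt31*, also side by side, were close in level, with means of 351 and 338.5. On chromosome 15, the row named *Krt83* (chr15:101431490-101438804) had an RPKM of 121 and 146.5 in cKO CLT, 42.5 in Ctrl CLT 1 and 0 in Ctrl CLT 2. The row named *5430421N21Rik* (chr15:101485130-101491512) had an RPKM of 306 and 377 in cKO CLT, 119.8 in Ctrl CLT 1 and 0.150 in Ctrl CLT 2, and was the 11th nearest gene by pattern (0.241). By position, GENCODE M21 places *Krt87* at the first of these rows and *Krt83* at the second, so the names of the table differ from that annotation. *5430421N21Rik* was named after its values had been seen.

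Some of these values are uncertain because the genes resemble each other. Of all windows of 50 bases in the longest transcript, 43.5% of those of *Krt81* and 43.3% of those of *Krt86* also occur in another gene, mostly in each other. For the cortex type I genes the share was 33.1% for *Krt34*, 28.1% for *Krt31*, 24.2% for *Krt33b* and 21.9% for *Krt33a*. It was 3.95% for *Krt35*, and 0% for *Krt32* and *Krt84*, whose values therefore do not rest on shared windows of this length. These 2 genes were high in the same 3 libraries as the rest. The *Krt85* row spans 60290 bases (chr15:101431014-101491303) and overlaps the rows of *Krt83*, *Krt81*, *Krt86* and *5430421N21Rik*, while its gene length is 2027 bases, so the place of its reads is uncertain.

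Because the genes were high together, the 250 bases before the gene start were read for motifs, to show what the promoters share. The RefSeq promoter table used here (GRCm38.p6) matched 5 of the 10 by symbol, and not *Krt33a*, *Krt35*, *Krt81*, *Krt85* and *Krt86*. The sequences are printed 5′ to 3′ on the gene's own strand, which is the minus strand for all 5, and capitals mark TATAAA, the TATA box core, and CTTTGAA, a LEF1/TCF core, where they occur on that strand. The windows are chr11:100050552-100050801 for *Krt31*, chr11:100088270-100088519 for *Krt32*, chr11:100029869-100030118 for *Krt33b*, chr11:100041555-100041804 for *Krt34* and chr15:101532821-101533070 for *Krt84*.
Krt31: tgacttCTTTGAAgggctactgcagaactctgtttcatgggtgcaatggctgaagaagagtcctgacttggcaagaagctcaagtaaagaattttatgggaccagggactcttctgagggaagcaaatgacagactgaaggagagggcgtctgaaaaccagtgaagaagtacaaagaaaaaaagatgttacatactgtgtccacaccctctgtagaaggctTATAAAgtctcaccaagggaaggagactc
Krt32: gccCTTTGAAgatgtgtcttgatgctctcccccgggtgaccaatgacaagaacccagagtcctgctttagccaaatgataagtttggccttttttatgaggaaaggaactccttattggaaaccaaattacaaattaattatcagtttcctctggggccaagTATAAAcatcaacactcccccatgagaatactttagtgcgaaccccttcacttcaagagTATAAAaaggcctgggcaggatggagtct
Krt33b: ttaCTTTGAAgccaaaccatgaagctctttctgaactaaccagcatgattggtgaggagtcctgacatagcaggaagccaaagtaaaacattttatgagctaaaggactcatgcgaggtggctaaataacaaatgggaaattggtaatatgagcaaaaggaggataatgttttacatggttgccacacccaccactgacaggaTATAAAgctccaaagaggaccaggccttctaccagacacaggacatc
Krt34: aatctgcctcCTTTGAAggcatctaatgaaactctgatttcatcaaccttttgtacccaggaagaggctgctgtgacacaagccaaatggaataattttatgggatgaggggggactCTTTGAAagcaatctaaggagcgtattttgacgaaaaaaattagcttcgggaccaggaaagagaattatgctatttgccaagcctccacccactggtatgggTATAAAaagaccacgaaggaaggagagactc
Krt84: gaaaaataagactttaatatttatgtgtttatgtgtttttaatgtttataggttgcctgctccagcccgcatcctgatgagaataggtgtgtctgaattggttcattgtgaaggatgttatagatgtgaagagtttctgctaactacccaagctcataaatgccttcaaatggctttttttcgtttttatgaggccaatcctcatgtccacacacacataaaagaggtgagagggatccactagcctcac

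On the gene strand TATAAA began 29 bases before the start in *Krt31*, 31 in *Krt34*, 47 in *Krt33b*, and 29 and 88 in *Krt32*. In *Krt84* it was found on the other strand, 206 bases before the start. So 5 of 5 held TATAAA on either strand and 4 of 5 on the gene strand, beside 12.3% and 7.55% of 32536 promoters. CTTTGAA was found in 4 of 5, beside 4.47% of promoters on either strand. It began 244 bases before the start in *Krt31*, 247 in *Krt32*, 247 in *Krt33b*, and 240 and 133 in *Krt34*, and *Krt84*, the tongue keratin, had none in this window. TTTATNG, a posterior Hox core, was found in *Krt31*, *Krt34* and *Krt84*, 3 of 5 beside 9.74% of promoters, and in *Krt84* it covers the same bases as the TATAAA match. TGANTCA, an AP-1 site that reads the same on both strands, was found in 0 of 5, beside 6.73% of promoters. The motif AGATAA, which factors such as *Gata3* can bind, was found in 0 of 5, beside 9.97% of promoters. Aligned without gaps, pairs of these windows were identical at 30.6% to 40.6% of bases, with *Krt31* and *Krt33b* the closest pair. Only the exact form given was searched for each motif, so near forms were not counted. Examples in the printed windows are TTTATGA in *Krt32*, *Krt33b* and *Krt84*, and TGATAA in *Krt32*. A count of 0 is thus not the absence of all sites that a factor can bind. The matches are descriptions of the letters, and binding was not measured here.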

How the data were processed

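RNA-seq values of 8 libraries, 2 for each labelled genotype and region, were used as deposited. According to the submitters' processing notes, the tools were FastQC 0.72, Trim Galore 0.4.3.1, STAR 2.6.0b-1, featureCounts 1.6.3 and DESeq2 2.11.40.2, with mm10 as the build. The authors deposited RPKM values for 23358 genes with a length for each gene. The annotation, the strand setting and the total used are not given in the sources used here, so overlapping, antisense and near-identical genes are uncertain. Reads per gene and library totals were recovered from the steps of the RPKM (whole within 0.05 reads). Of the gene names, 26 occurred on 69 rows, and none of these was used by name.

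Genes that reached an RPKM of 1 in 2 or more of the 8 libraries (14148 genes) were tested on log2(RPKM + 1) with limma 3.58.1 in R 4.3.3 (lmFit, eBayes with a variance trend), with Benjamini-Hochberg adjustment over all genes and a threshold of 0.05. Each comparison used its own 4 libraries, and the interaction used all 8. The code was tested on simulated data. The count of 0 was given a floor of 3 reads over the pooled group, and ratios of reads have exact 95% counting intervals. A count model was not used as the main test because RPKM are not counts.

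Genes named are the 10 members, *Med1*, up to 6 genes of each list (the most abundant, the extremes in CLT, those against the majority, those at 0) and the 10 nearest genes. Other examples were picked with their values in view. The members and lists were chosen with earlier results of these data known. *Krt87*, *Krt72*, *Flg* and *Hbb-bs*, also listed, matched no row by name. For 1 other listed gene, the result is not reported here. Alternatives were a fit of all 8 libraries, a replicate block, each library left out in turn, voom on the recovered reads, robust eBayes, no variance trend, a filter on mean RPKM or none, quantile normalization, median-of-ratios scaling, pseudocounts of 0.1 and 0.5 and, chosen after seeing the data, a crossed replicate block. Promoters and their starts are from RefSeq (GRCm38.p6) and transcripts from GENCODE M21.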

Additional observations from a re-analysis of the deposited data

How the results depend on the processing

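Under the alternatives the hair keratins differed in the same direction in CLT, and the calls changed with the libraries in the fit. In CLT 0 of 10 were called, and 1 (*Krt84*) with all 8 libraries in 1 fit (limma adjusted p = 0.0333) and 1 (*Krt84*) with the replicate block (limma adjusted p = 0.0413, 0.0413 to 0.0686 over the 10). Other pseudocounts, scalings, filters, variance settings and voom called 0. Leaving out 1 library changed the calls of the hair keratins only where it was a Ctrl CLT library. In CLT and for the interaction they changed without either of the Ctrl CLT libraries. For CLT against CLH in Ctrl they changed without Ctrl CLT 2 (median log2 difference 6.57) and not without Ctrl CLT 1 (0.06). CLT against CLH in cKO gave 10 of 10 under each alternative, and CLH gave 0 of 10. With a pseudocount of 0.1 the median log2 difference between CLT and CLH in cKO was 11.01, against 8.11. Over all genes, the 11 called as higher and 237 as lower in CLT became 0 and 35 with no filter, 3352 and 2831 with all 8 libraries in 1 fit, 888 and 856 with the replicate block, 0 and 0 with voom, 4445 and 5393 without Ctrl CLT 1, 4121 and 3248 without Ctrl CLT 2, and 0 and 11 without either cKO CLT library. In CLH robust eBayes called 2 and 2, against 0 and 0. The interaction's 1139 higher and 1355 lower became 513 and 935 with the replicate block, 4028 and 4904 without Ctrl CLT 1, 3757 and 2842 without Ctrl CLT 2, and 2 to 19 and 196 to 265 without any other library. For CLT against CLH in Ctrl the 1 higher and 0 lower became 346 and 491 with all 8 libraries in 1 fit, 5 higher with the replicate block, 270 and 198 without Ctrl CLT 1, 2600 and 4937 without Ctrl CLT 2, and 0 to 2 higher under the rest. Apart from the libraries left out, the cause was not tested. The sources do not say whether replicate numbers stand for litters. Deviations of the same numbers correlated across genes at -0.19 between Ctrl CLT and cKO CLT, 0.07 between the CLH groups, 0.31 between CLH and CLT in cKO and 0.20 in Ctrl. A crossed replicate block, chosen after seeing the data, called 0 of 10 in CLT, and 0 higher and 9 lower over all genes. Depth limits the CLH and Ctrl CLT 2 values, which rest on 0 to 18 reads per gene.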
